A study of Mus musculus with 6 samples.

Results

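Melanocyte antigens are the proteins of pigment cells that T cells can recognise, and 8 of their genes were followed here in medullary thymic epithelial cells (mTECs) of mice with and without Mbd1. They are Tyr, Tyrp1 and Dct, the tyrosinase family of melanin-making enzymes, the melanosome genes Silv, Mlana and Slc45a2, the receptor gene Mc1r and the transcription factor gene Mitf. The genes were taken by their symbols in the authors' array matrix, which gave 9 probes. Silv is the old symbol of Pmel, and the matrix names its probe Si, a still older symbol, so that probe was taken by its gene identifier. The 8 genes thus had 10 probes, 2 each for Dct and Mitf and 1 for each of the others. After a filter on detection above background 6 of the 8 genes were tested, among 21287 genes in all, and Tyr and Tyrp1 were left without a test.

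Melanin is made inside melanosomes, membrane-bound organelles of melanocytes and of the retinal pigment epithelium. Tyrosinase, encoded by Tyr, catalyses the first step from tyrosine, and the products of Dct and Tyrp1 act on later intermediates. Pmel protein forms the fibrils on which the pigment is laid down. Mitf encodes the main transcription factor of the melanocyte lineage, and the receptor encoded by Mc1r receives melanocortins and sets the type of melanin. mTECs make small amounts of many proteins of other organs, melanocyte proteins among them, and display them to developing T cells.

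Promoter DNA is shown for the 4 genes that hold the E-box CATGTG, the core of the motif that MITF is known to bind in tyrosinase family genes. Each stretch surrounds the match nearest the gene start. RefSeq windows of 300 bases (build GRCm38.p6, 250 bases before the gene start to 50 after it) were given for 5 of the 8 genes. In the first 3 sequences the capitals mark the longest run of letters that Tyr, Tyrp1 and Dct share, and in the last one the E-box. Each is printed on the strand of its gene, ending before the start.

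Tyr, chr7:87493513-87493563, minus strand: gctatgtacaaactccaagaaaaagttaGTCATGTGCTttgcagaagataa

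Tyrp1, chr4:80834137-80834202, plus strand: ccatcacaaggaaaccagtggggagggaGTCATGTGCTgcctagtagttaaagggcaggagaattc

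Dct, chr14:118052361-118052426, minus strand: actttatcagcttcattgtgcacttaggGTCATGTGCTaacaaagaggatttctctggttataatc

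Mc1r, chr8:123407001-123407066, plus strand: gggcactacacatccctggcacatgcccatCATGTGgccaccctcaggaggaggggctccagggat

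The shared run GTCATGTGCT is 10 bases long and contains both CATGTG and TCATGTG. It was found after the sequences were compared, and it occurs on either strand in 0.186% of all 32851 promoter windows. CATGTG alone occurs on either strand in 14.2% of the windows, TCATGTG, which contains it, in 3.77% and the other E-box searched, CACGTG, in 7.15%. Counted from -1, the base before the start, the CATGTG match lay at -21 to -16 in Tyr and at -46 to -41 in Tyrp1. Dct held a match at -150 to -145 and another, on the opposite strand, at -232 to -227. Mc1r held one at -51 to -46 and one on the opposite strand at -62 to -57. The 3 windows of Mitf, 1 for each of 3 starts, held none of these letters in either orientation, and CACGTG was in none of the 7 windows. The product of Mbd1 binds methylated CpG sites, and the number of CG dinucleotides per window was 0 in Tyr, 3 in Tyrp1, 5 in Dct, 4 in Mc1r and 22, 5 and 8 in the windows of Mitf. The median over all windows was 7, with quartiles of 3 and 20. These matches describe the letters in the windows. Binding and methylation were not measured.

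**Figure D1:**
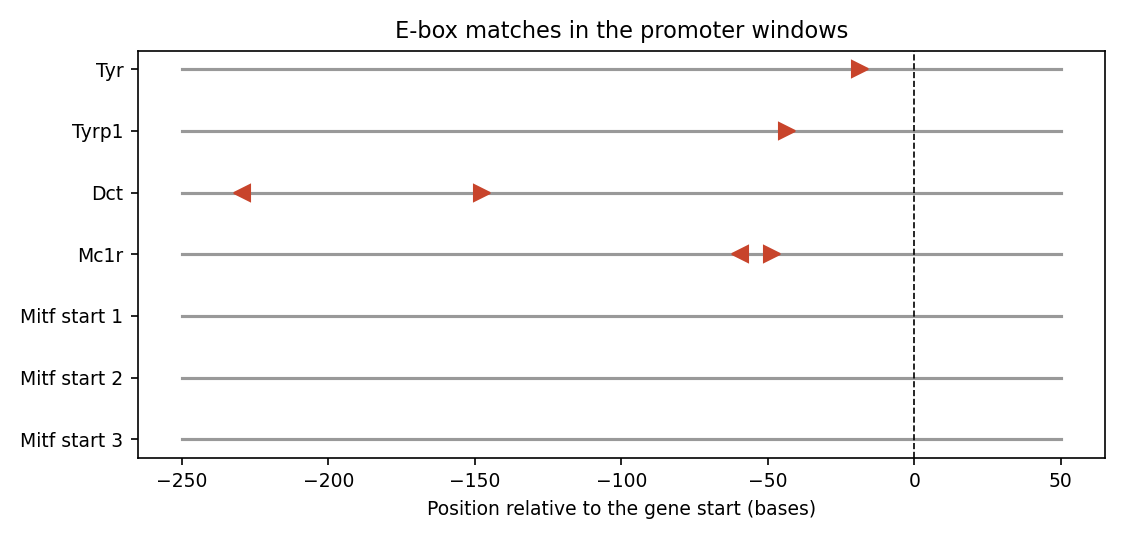
Positions of the E-box CATGTG in the RefSeq promoter windows of Tyr, Tyrp1, Dct, Mc1r and Mitf. The x axis gives bases from the gene start (dashed line), grey lines are the windows from 250 bases before to 50 after the start, and triangles mark matches, pointing right on the strand of the gene and left on the opposite strand. Tyr and Tyrp1 hold 1 match each, Dct and Mc1r hold 2 each and the 3 Mitf windows hold 0.

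The mice were 30 days old and were labelled either Mbd1 wild type (WT) or Mbd1 knockout (KO), with no strain, allele or deleted segment named and no other treatment. mTECs were sorted from thymus as cells negative for DAPI, CD11c, CD45 and Ly51 and positive for EpCAM and MHC class II, and their RNA was amplified with a whole transcriptome kit, labelled with Cy3 and hybridised to 1-colour Agilent arrays. Each genotype has 3 arrays, described as biological replicates, after the submitters dropped 1 of each for quality, and the number of animals behind each array is not given in the sources used here. Values below are the authors' log2 values per probe, on a common scale for the 6 columns WT_1 to WT_3 and KO_1 to KO_3. They are not background-subtracted, so differences of dim probes are understated.

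The names of the columns do not match the titles of the scanner files. By the rank of their probes, 5 of the 6 columns were identical to a scanner array, in 0 cases under matching names and in 4 across the genotypes. Columns are used here as named, and every direction rests on those names. Mbd1, the targeted gene, read 8.83, 8.60 and 9.0 in the WT columns and 5.64, 5.61 and 5.60 in the KO columns (difference -3.19, SE 0.19, limma adjusted p = 5.5e-05). The KO values lay just above background. Where the probe, A_51_P143224, lies relative to the deletion is not given. The scanner files marked 72.6% to 79.4% of probes per array as well above background, and 5187 probes were so marked on no array. The 95th percentile of those never detected probes was 5.46 to 5.62 per column, and this is called the background level below. Of 15 mTEC markers 14 were measured, with Epcam between 12.8 and 13.2 and Aire, the autoimmune regulator, between 10.5 and 11.4. Aire differed by 0.30 (SE 0.26, adjusted p = 0.999) and Epcam by -0.23 (SE 0.19, adjusted p = 0.999) between the groups, KO minus WT as throughout. Column KO_1, which equalled no array, also had the lowest values of the Y-linked genes, with Uty at 5.34 against 6.0 to 7.07 in the other columns. Xist, on the X chromosome, was highest in KO_1, at 13.39 against 12.11 to 13.06 in the other columns. The sex of the mice is not given in the labels used here. Without KO_1 the differences of Dct and Mitf given below are 0.54 and -0.48.

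Of the 6 melanocyte genes tested, 0 passed an adjusted p of 0.05 (limma with Benjamini-Hochberg adjustment over all genes), and 1, Dct, had an unadjusted p under 0.05. Over all genes 36 passed, which is 0.169%, and 919 had an unadjusted p under 0.05, which is 4.32%. The KO columns all lay above the WT columns for 1 of the 6 genes, against 4.3% of all genes, and all below for 0, against 4.09%. With 6 genes, counts of 1 and 0 are too small to be read as a result about the group. The differences were positive for 3 and negative for 3, with a median of 0.05, and the median over all genes was -0.0045. In bulk RNA of sorted cells, fewer cells that make a transcript and less of it per cell cannot be told apart. The authors' deposited table gives the same log2 ratios, with an FDR of 0.845 for the first Dct probe and 0.9995 for each of the other 9 probes.

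**Figure D2:**
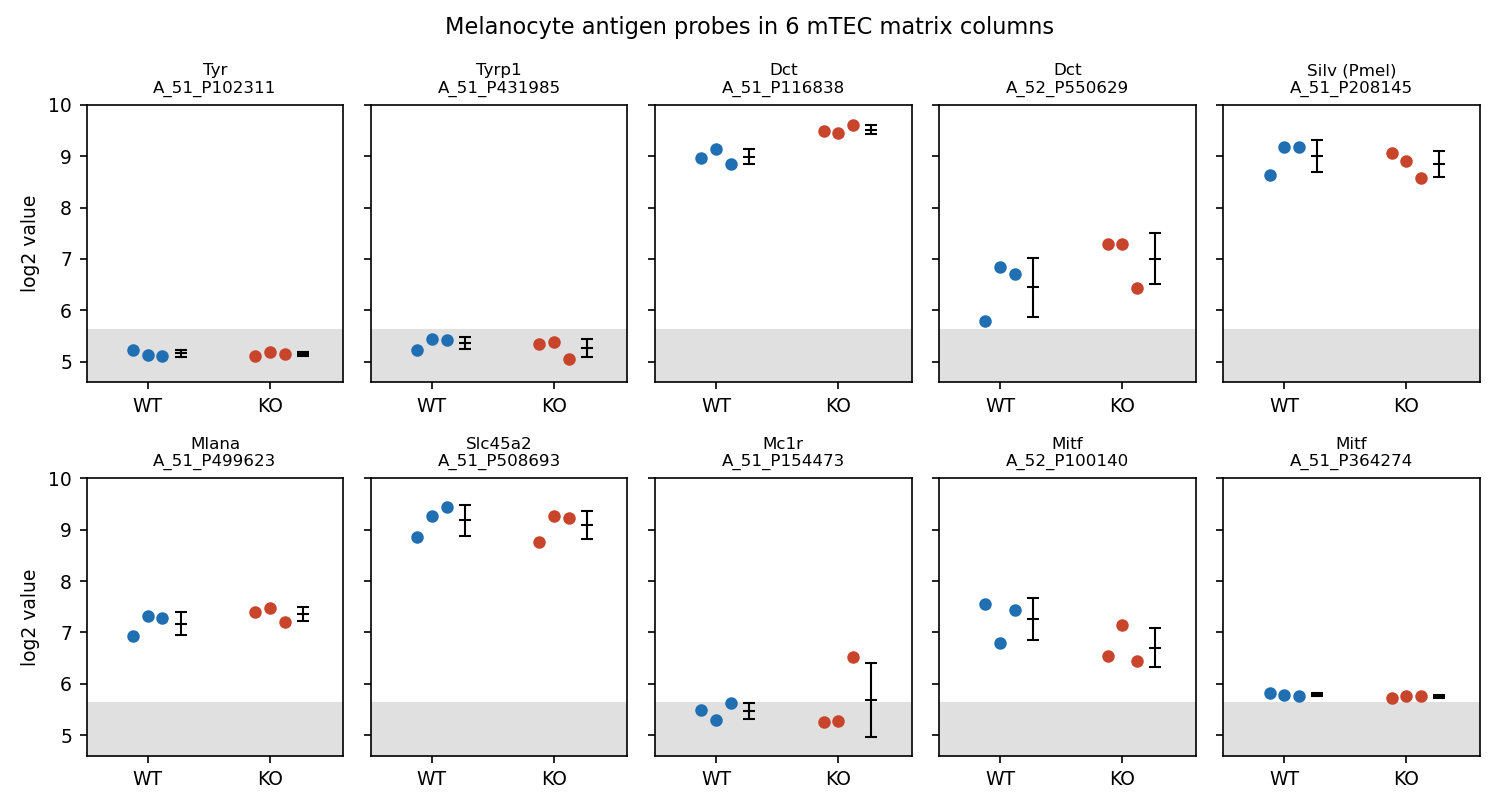
Log2 values of the 10 probes of the 8 melanocyte genes in each matrix column (points, WT in blue and KO in red), with the mean and SD of each group of 3 beside them. The grey band ends at 5.62, the highest background level of a column. All 6 points of Tyr and of Tyrp1 lie in the band, the points of the first Dct probe do not overlap between the groups, and Mc1r leaves the band in 1 column, KO_3.

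Tyr, the gene of tyrosinase (chromosome 7), gave no signal above background in any column. Its probe A_51_P102311 read 5.23, 5.13 and 5.12 in the WT columns and 5.11, 5.18 and 5.15 in the KO columns. All 6 values lay under the background level of their column. The probe is printed in 10 spots on each array, and 0 of the 60 spots on the 6 arrays were well above background. The difference of -0.01 (SE 0.14) therefore compares background with background, and Tyr transcript was not detectable on these arrays.

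Tyrp1, the gene of tyrosinase-related protein 1 (chromosome 4), was also at background. A_51_P431985 read 5.22, 5.45 and 5.42 in the WT columns and 5.34, 5.38 and 5.06 in the KO columns, each under the background level of its column. Of its 60 spots, again 10 per array, 3 were well above background, 1 on each of 3 arrays. As 1 spot of 10 falls short of the share that a detection requires, 0 arrays counted as detecting it. The groups overlapped, with a difference of -0.10 (SE 0.16).

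Dct, the gene of dopachrome tautomerase (chromosome 14), was the one member of the tyrosinase family with a signal, and the one gene of the 8 whose groups did not overlap. A_51_P116838 read 8.97, 9.14 and 8.85 in the WT columns and 9.50, 9.45 and 9.61 in the KO columns, and was well above background on all 6 arrays. The lowest KO column lay above the highest WT column. The means were 8.99 ± 0.15 for WT and 9.52 ± 0.09 for KO (SD, n = 3), a difference of 0.53 (SE 0.19, 95% interval 0.12 to 0.94) or 1.45-fold. Adjusted over all genes it missed the threshold (limma, adjusted p = 0.838). With each column left out in turn the difference stayed between 0.46 and 0.61.

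The second Dct probe, A_52_P550629, read 5.79, 6.84 and 6.70 in the WT columns and 7.28, 7.30 and 6.43 in the KO columns. Its difference was 0.56 (SE 0.33), close to that of the first probe, but the groups overlapped because KO_3 was lower than WT_2 and WT_3. It was well above background on 5 of the 6 arrays, WT_1 being the column whose array missed it. Within the slide that holds columns of both groups, WT_1 against KO_2 and KO_3, the first probe differed by 0.56. The other slide holds WT_2 and WT_3, and KO_1 equalled no array, so the column groups are partly confounded with slide. With the scanner arrays grouped by their own titles in place of the column names, the first probe differed by -0.01. All arrays titled WT lie on slide 1 and all titled KO on slide 2, so title and slide cannot be told apart in that grouping. Mbd1 followed the column names and not those titles: it read 8.60 and 9.0 in WT_2 and WT_3, whose arrays are titled KO, and 5.61 and 5.60 in KO_2 and KO_3, whose arrays are titled WT.

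Some marker lists of other cells also had positive median differences. Of 15 measured thymocyte and T cell genes 14 were positive and 7 had KO above WT in all columns, against 4.3% of all genes, with 0 passing. Their summed linear level was 3582 to 4760 in WT and 6111 to 7549 in KO. The 3 of smallest p were Dntt, a polymerase of developing lymphocytes (0.91), Cd8b1 (0.97) and Cd3e (0.84). None of them passed the threshold (limma adjusted p = 0.185, 0.185 and 0.456). Other genes of the list were nearly flat, with Lck at 0.06, Cd4 and Cd5 at 0.02 each and Ptcra, the negative one, at -0.02. Rag2, of the same list, was at background. Of 9 measured dendritic cell and macrophage genes 6 were positive and 3 negative. KO lay above WT in all columns for 3, Ccr7 (0.77), Tyrobp (0.70) and Flt3 (0.17), and below for 1, Xcr1 (-0.28). The summed levels of the 9 were 6376 to 6704 in WT and 7760 to 8685 in KO. Of 8 cortical thymic epithelial genes 7 were positive. KO lay above WT in all columns for 2, Prss16 (0.52) and Ccl25 (0.43), and below for 1, Ly75 (-0.27). The part of these cells in the Dct values was not tested.

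Silv, the gene of the melanosome fibril protein (chromosome 10), was well above background on all 6 arrays. A_51_P208145 read 8.64, 9.18 and 9.18 in the WT columns and 9.07, 8.91 and 8.58 in the KO columns. The groups overlapped, WT_1 and KO_3 being the lowest of each. The difference of -0.14 (SE 0.23, 95% interval -0.64 to 0.35, adjusted p = 0.999) did not pass. Its sign turned to 0.11 within the slide holding both groups. With the arrays under their titles, which mix the column groups, the difference was 0.65.

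Mlana, the gene of the melanosome protein known as MART-1 (chromosome 19), was detected on all 6 arrays, with overlapping groups. A_51_P499623 read 6.93, 7.31 and 7.28 in the WT columns and 7.39, 7.48 and 7.21 in the KO columns. KO_3 lay among the WT values. The difference was 0.19 (SE 0.20, 95% interval -0.25 to 0.62, adjusted p = 0.999). It was 0.06 without WT_1, the lowest column, and 0.42 within the slide.

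Slc45a2, the gene of a melanosomal transporter needed for full pigmentation (chromosome 15), had overlapping groups with 1 low column in each. A_51_P508693 read 8.85, 9.26 and 9.44 in the WT columns and 8.77, 9.27 and 9.23 in the KO columns. It was detected on all 6 arrays. The difference was -0.10 (SE 0.23, 95% interval -0.60 to 0.40, adjusted p = 0.999). It turned to 0.03 without WT_3, to 0.06 without KO_1 and to 0.40 within the slide.

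Mc1r, the gene of the melanocortin 1 receptor (chromosome 8), was near background in 5 columns and above it in 1. A_51_P154473 read 5.49, 5.30 and 5.62 in the WT columns and 5.26, 5.28 and 6.52 in the KO columns. Only WT_3, by a small margin, and KO_3 exceeded the background level of their column. The probe was well above background on 3 of 6 arrays: those of WT_3 and KO_3, and the array titled KO 2. That last array equalled no column, and Mc1r met the filter of 3 arrays only with it. The difference of 0.22 (SE 0.31, 95% interval -0.47 to 0.91, adjusted p = 0.999) rested on KO_3. Without that column it was -0.20, and with background subtracted on the linear scale it was 0.68.

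Mitf (chromosome 6) had the largest negative difference of the 8 genes. A_52_P100140 read 7.56, 6.80 and 7.44 in the WT columns and 6.54, 7.14 and 6.43 in the KO columns, and was detected on all 6 arrays. WT_2 was lower than KO_2, so the groups overlapped. The means were 7.27 ± 0.41 for WT and 6.70 ± 0.38 for KO (SD, n = 3). The difference of -0.56 (SE 0.26, 95% interval -1.14 to 0.02) did not pass (limma adjusted p = 0.999). Leaving out a column gave -0.79 to -0.41, and the slide gave -0.77.

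The second Mitf probe, A_51_P364274, was nearly flat across the columns, at 5.81, 5.78 and 5.76 in WT and 5.72, 5.77 and 5.75 in KO. The difference was -0.04 (SE 0.13). All 6 values were above the background level of their column, though by little, and 40 of its 60 spots were well above background. With the mean of both probes the difference for Mitf was -0.30. Mitf has several starts and isoforms, and which of them each probe reads was not examined. Under the titles of the scanner arrays, which mix the column groups, the first probe differed by 0.09.

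**Figure D3:**
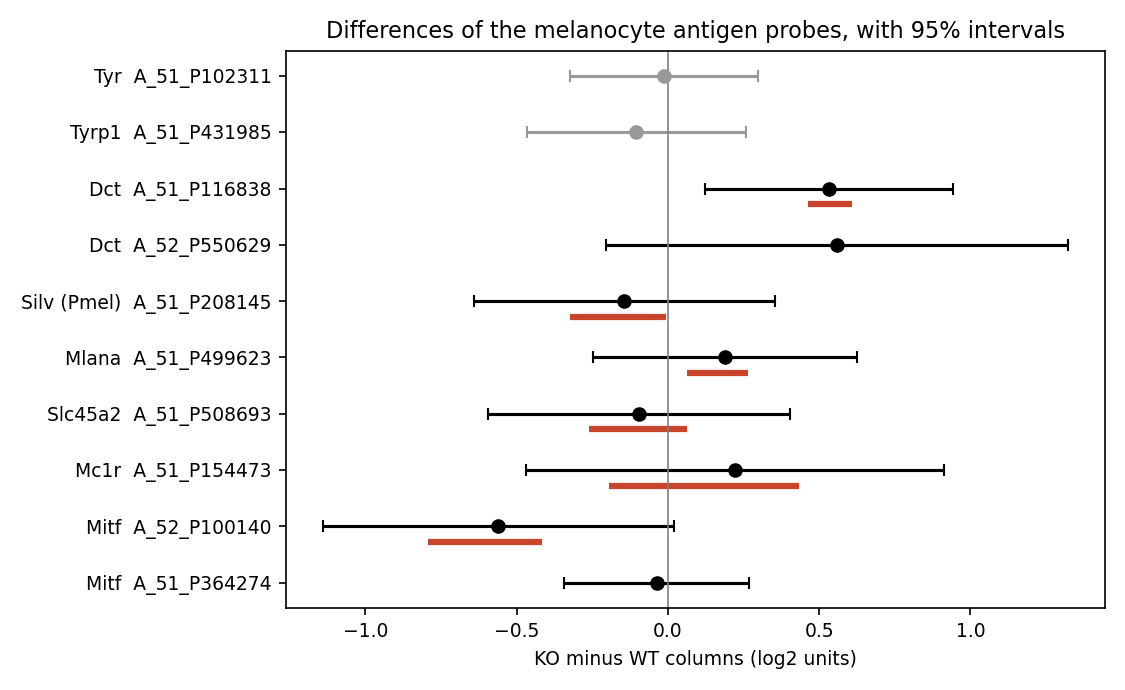
Differences of the 10 probes, KO minus WT columns in log2 units (points), with 95% intervals from limma. Red bars give the range of the difference with each column left out in turn, and the 2 probes in grey were at background. The interval of the first Dct probe lies above 0, at 0.12 to 0.94, before adjustment over all genes, and every other interval includes 0.

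The order of the genes by difference ran from Mitf at -0.56 through Silv, Slc45a2, Mlana and Mc1r to Dct at 0.53, and neighbours in this order lay within each other's intervals. Over all genes the 5th and 95th percentiles of the difference were -0.39 and 0.39, so the tested probes of Mitf and Dct lay outside these and the other 4 tested genes inside. The mean of both Mitf probes, at -0.30, lay inside. Spans over the 6 columns exceeded 1 log2 unit for Mitf and Mc1r among the probes used for testing. For these, the genes of most like pattern were sought by the smallest root mean square difference after each gene was centred on its own mean. For Mitf they were Lrrc40 (0.09) and Ninl (0.09). For Mc1r they were Skor1 (0.09) and an unnamed probe, A_52_P989397 (0.09). These likenesses are over 6 columns of the same arrays and carry no test.

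Other genes of pigmentation were taken from 4 lists with 51 measured genes, of which 0 passed over all genes. An unadjusted p under 0.05 was reached by 6 of the 51, against 4.32% of all genes. KO lay above WT in all columns for 1 and below for 4, beside the 4.3% and 4.09% of all genes. The median difference was -0.01, with 23 positive and 28 negative, and the smallest adjusted p was 0.252.

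Among 9 other melanosome proteins the median difference was 0.05, with 5 positive and 4 negative. Gpr143, a melanosomal receptor, differed by 0.67 (SE 0.26, adjusted p = 0.999), with WT at 6.35, 7.05 and 7.18 and KO at 7.17, 7.61 and 7.81. Its lowest KO value fell just under its highest WT value. Gpnmb, a glycoprotein related to Pmel, was lower in all KO columns, at 8.93, 9.43 and 9.44 in WT and 8.76, 8.71 and 8.85 in KO (difference -0.49, SE 0.21, adjusted p = 0.999). Slc7a11, the cystine transporter, differed by 1.00 (SE 0.42, adjusted p = 0.999) with overlapping groups, WT_1 at 8.84 being far above the other WT columns at 7.13 and 7.05.

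The 19 genes of melanosome biogenesis and transport had a median difference of -0.05, and none had an unadjusted p under 0.05. Myo5a, the motor that carries melanosomes on actin, differed by -0.31 (SE 0.19, adjusted p = 0.999) and was the one gene of the list whose groups did not overlap. Rab38 differed by -0.25 and Bloc1s6, a subunit of a complex needed for the organelle, by -0.35, the latter with 1 low column, KO_3 at 7.22. Rab27a and Mlph, which link the melanosome to that motor, differed by 0.20 and -0.05.

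Among 11 signals to melanocytes and their antagonists the median difference was 0.0009. Hgf, a growth factor of melanocytes and many other cells, had the smallest adjusted p of the 4 lists. It read 8.81, 8.79 and 8.50 in WT and 7.92, 8.01 and 7.60 in KO, without overlap, a difference of -0.86 (SE 0.20, adjusted p = 0.252). Ednrb, the endothelin receptor of the lineage, was higher in all KO columns (difference 0.48, SE 0.21, adjusted p = 0.999), while Edn3, its ligand, differed by 0.0009. Atrn, an accessory receptor for agouti, differed by -0.27. Kit and its ligand Kitl differed by 0.12 and -0.02, and Pomc, the precursor of the melanocortins, by 0.19, none past the threshold (adjusted p = 0.999 each).

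The 12 transcription factors of the lineage had a median difference of -0.09, with 4 positive and 8 negative. Tfec, of the same family as Mitf, was lower in all KO columns, at 6.99, 6.80 and 6.96 in WT and 6.20, 6.80 and 6.10 in KO (difference -0.55, SE 0.22, adjusted p = 0.999). The margin was small, since WT_2 and KO_2 agree to 2 decimals. Tfeb and Tfe3, the other relatives, differed by -0.16 and -0.01. Sox10, which acts upstream of Mitf in melanocytes, read 7.90, 8.40 and 8.74 in WT and 7.86, 8.62 and 7.29 in KO (difference -0.43, SE 0.33), with overlap. Lef1, a partner of MITF, differed by 0.31, and Pax3 read between 5.59 and 5.91 in all columns.

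**Figure D4:**
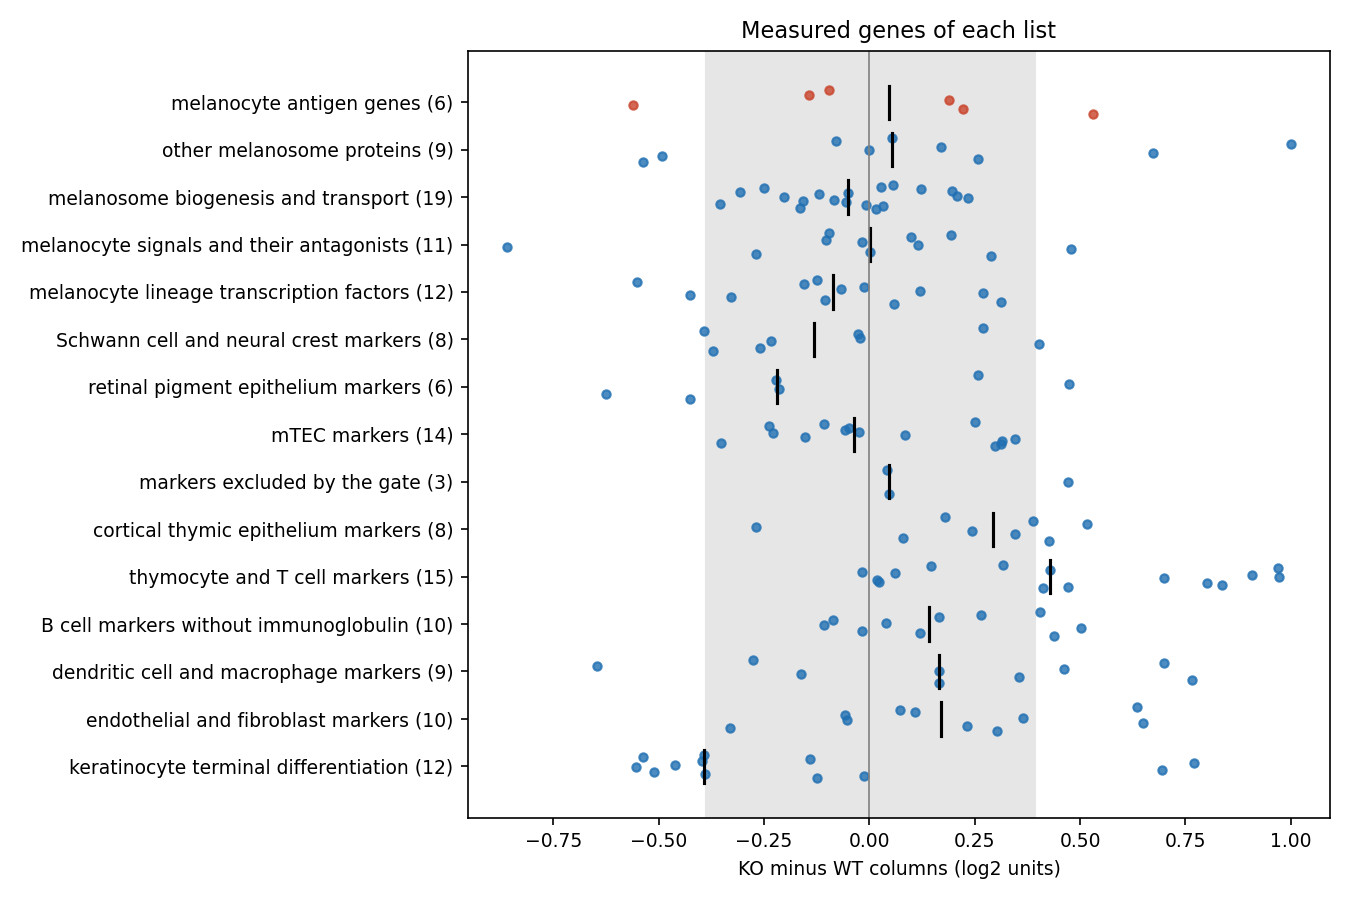
Differences of the measured genes of each list, KO minus WT columns in log2 units, with the number measured in parentheses and the list median as a black bar. The top row holds the 6 tested melanocyte genes, and the grey band spans the 5th to 95th percentile of all genes, -0.39 to 0.39. The melanocyte genes spread to both sides with a median of 0.05, and 14 of 15 thymocyte and T cell genes lie above 0.

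Cells other than mTECs were looked for by their markers. Of 8 Schwann cell and neural crest genes 2 were positive, and the median difference was -0.13. Their summed level was 10480 to 10820 in WT and 10530, 8126 and 10370 in KO_1, KO_2 and KO_3, with KO_2 alone low. Of 7 retinal pigment epithelium genes 6 were measured, with a median of -0.22, and Otx2 was near background. In that list Rlbp1 differed by 0.47 and was higher in all KO columns, Best1 differed by -0.43 and was lower in all of them, and Lrat differed by -0.62 with overlap. Among the markers that the gate excludes, Ptprc, which encodes CD45, read 7.66 to 8.36 and Enpep, which encodes Ly51, 7.37 to 8.04. Itgax, which encodes CD11c, was dim at 5.49 to 6.38, with WT_1 under the background level of its column. Itgax was higher in all KO columns, like 4.3% of all genes, and did not pass (limma adjusted p = 0.999). The list of 10 B cell genes, which leaves out immunoglobulin genes, had a median of 0.14. The medians were 0.17 for the 10 endothelial and fibroblast genes and 0.17 for the 9 dendritic cell and macrophage genes. The 8 cortical genes had 0.29, the 15 T cell genes 0.43, the 14 mTEC genes -0.04 and the 5 sex-linked genes -0.33. The 12 measured genes of keratinocyte terminal differentiation, another antigen group of mTECs, had a median of -0.39 with 10 negative. In that group KO lay above WT in all columns for 2, Krt2 (0.77) and Klk7 (0.70), and below for 3. In each of these lists 0 genes passed over all genes, and the part of other cells in the melanocyte genes' values was not tested.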

How the data were processed

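RNA of sorted mTECs was measured on 1-colour Agilent arrays, 3 per genotype, each with 43379 non-control spots of 41174 probes and 0 saturated. The authors' deposited matrix holds a log2 value per probe and column, their log2 ratio of KO over WT and adjusted p-values (FDR); no source used here says how it was normalized. The deposited scanner files hold intensity values per spot, made with Agilent Feature Extraction (10.7.3.1 per the file headers, 10.6 per the submitters' processing notes), and served for the flags of detection and as alternatives.

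A probe was kept where well above background on at least 3 of 6 arrays, whatever their titles, without outlier-flagged spots (32235 probes). An array counted where at least as many of the probe's unflagged spots were well above background as were not. This also dropped some bright probes: Ctss of the mTEC list and Sprr1a of the keratinocyte list counted on 0 arrays, against 6 with outlier-flagged spots. The kept probe with the highest mean stood for its gene, and a kept probe without a gene name (5521 in the whole matrix) stood for itself. The matrix values were fitted in limma (3.58.1, R 4.3.3) by lmFit and eBayes, KO against WT columns, two-sided, with Benjamini-Hochberg adjustment over 21287 genes and a threshold of 0.05. Single-probe differences and SEs, used for Tyr, Tyrp1 and the second probes, came from a fit of all probes without a filter. The fit was tested on simulated data. The number of arrays limits the precision, and an exact permutation test of 3 against 3 cannot go below 0.1. Probes are placed by chromosome only, since no source used here names the build of the matrix.

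The 8 genes, the gene lists and the tests were chosen with earlier results of these data known. Named from the 4 pigmentation lists were the 3 genes of smallest p and, chosen after their values were seen, Rab27a, Mlph, Edn3, Kit, Kitl, Pomc, Tfeb, Tfe3 and Pax3. From the 11 other lists examples are named and the rest counted. Alternatives were the filter, the mean of a gene's probes, trend and robust moderation, each column left out, the replicate number or the slide as a block, background subtraction, the scanner files under their titles and the authors' adjusted p-values.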

Additional observations from a re-analysis of the deposited data

How the results depend on the processing

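Under each alternative tried 0 of the tested melanocyte genes passed the threshold. The count over all genes, 36, became 19 without a filter, 23 with background subtracted, 63 with the replicate block, 0 with the slide as a block over 5 columns and 0 with the scanner arrays under their titles, at the 75th percentile or with normexp; leaving out a column gave 17 (without WT 2) to 56 (without KO 3). The replicate block changed no call of a melanocyte gene, and the numbers were not taken as pairs, since columns sharing a number deviated with correlations of -0.276, -0.173 and -0.329. Dct kept its sign in the 9 matrix alternatives that changed its value (0.46 to 0.61, smallest adjusted p = 0.621) but read -0.0135 and -0.0438 under the titles (75th percentile and normexp). Mitf kept its sign in the 9 that changed its value (-0.80 to -0.30) and read 0.0895 under the titles at the 75th percentile. Mlana kept its sign throughout. Silv turned to 0.11 in the slide block and to 0.65 and 0.52 under the titles. Slc45a2 turned to 0.40, 0.13 and 0.0582 in the same order, with left-out columns giving -0.26 to 0.0633. Mc1r turned to -0.0396 and -0.071 under the titles, with left-out columns giving -0.20 to 0.43, and was 0.68 with background subtracted. The cause of the turns among the matrix alternatives was not tested. Under the titles, the WT group holds the arrays of columns WT_1, KO_2 and KO_3 and the KO group those of WT_2 and WT_3. The grouping under the titles therefore mixes the column groups and does not compare KO with WT columns. That grouping is also one by slide, and it includes the array titled KO 2, which equals no column. The slide block has few samples, since a single slide holds columns of both groups. Normexp was planned on mean signals and run on median signals, a choice made after seeing the files. Dim signal limits Tyr, Tyrp1, Mc1r and the second Mitf probe.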

Other observations

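The scanner array titled KO 2 equalled no matrix column, so its values enter no comparison of the columns. On it the first Dct probe had a processed intensity of 830, the highest of the 6 arrays, whose range began at 279. Mlana was also at its highest there, at 256 against 56.2 to 168 on the other arrays, and Mc1r was at 67.0, well above background. Slc45a2, at 382 against 243 to 762, and the first Mitf probe, at 77.6 against 37.9 to 161, lay within the range of the other arrays, as did Silv at 617 against 228 to 652. Tyr had 0 of 10 spots well above background on it and Tyrp1 0 of 10. These intensities are not normalized between arrays, and the title KO 2 does not settle the genotype of that array. Most arrays that equalled a column are titled with the other genotype, and the Mbd1 signal of the array titled KO 2 is not given here.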
